A study of Mus musculus with 5 samples.

Results

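Late neutrophil precursors were examined among Lin-kit+ bone marrow cells of the mouse, as the cells that held at least 5 UMIs (unique molecular identifiers, each standing for 1 captured transcript) of Ltf, the gene of lactoferrin. The rule selected 938 of 11581 Lin-kit+ cells, and the whole series held 12893 cells. By their labels the mice were 20 weeks old, untreated, and of the strain Fgd5CreERT2/+Rosa26Tomato/+. That strain name stands for 1 allele of the Fgd5 locus carrying a ZsGreen-2A-CreERT2 knock-in and a Cre-dependent (lsl) Tomato allele at Rosa26, and no group without these alleles was measured. CD45.2+ marrow cells without lineage antigens and with c-kit on their surface were sorted and loaded as 3 libraries, which are called a, b and c here and held 1339, 4095 and 6147 cells. Another 2 libraries, with 793 and 519 cells, held cells of the same gate that carried the Fgd5 reporter (Fgd5+), in 1 of them with an added HSC phenotype (HSC-Fgd5+). The match of libraries to sorted populations rests on cell numbers, the labels of the 2 reporter samples disagree between their titles and sources on which one had the HSC gate, and separate mice per library are not stated.

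Neutrophils store their proteins in granules that are filled in sequence during maturation in the marrow. Primary (azurophil) granules with myeloperoxidase and serine proteases are made at the promyelocyte stage, and secondary (specific) granules with lactoferrin, the cathelicidin precursor and lipocalin-2 are made at the later myelocyte and metamyelocyte stages, followed by tertiary granules with gelatinase. The transcription factor C/EBPε is required for secondary granule genes, and the capacity to divide is lost as precursors pass from the myelocyte to the metamyelocyte stage. Ltf encodes an iron-binding protein of secondary granules, Ngp the neutrophilic granule protein, Camp the cathelicidin precursor, Lcn2 the siderophore-binding lipocalin-2 and Cd177 a surface glycoprotein of neutrophils.

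In the GRCm38 annotation (GENCODE M21) Ltf lies at chr9:111019271-111042767 on the forward strand, Ngp at chr9:110419747-110423012 on the forward strand, Camp at chr9:109847379-109849617 on the reverse strand, Lcn2 at chr2:32384633-32388252 on the reverse strand and Cd177 at chr7:24743983-24760311 on the reverse strand. Because the C/EBP family binds the promoters of secondary granule genes, the promoter windows of RefSeq (GRCm38.p6, 250 bases before to 50 after each start site) were searched for the C/EBP-type letters TTGCNNAA on both strands (TTNNGCAA on the reverse), and a span that matched on both was counted once. The letters occurred in 10.8% of all 32851 windows and in those of 5 of the 12 secondary granule genes found there, which were Lcn2, Ltf, Mmp8, Ngp and Ptx3. The letters AGGAAGT, the core bound by PU.1, occurred in 9.35% of all windows and in 3 of the 12 (Chil3, Mmp8 and Olfm4), and in none of the 4 windows of Ltf, Ngp, Camp and Lcn2. The windows of Ltf, Ngp and Lcn2 are shown from 250 to 66 bases before the start site, 5′ to 3′ on the strand of the gene, with the match in capitals. The Ltf match began 75 bases before the start site, the Ngp match shown began 138 bases before it (a second one, not shown, began 11 bases before it) and the Lcn2 match began 216 bases before it. The Camp window held no match. These matches are a description of letters and not of bound sites.
Ltf (chr9:111019042-111019226, forward strand): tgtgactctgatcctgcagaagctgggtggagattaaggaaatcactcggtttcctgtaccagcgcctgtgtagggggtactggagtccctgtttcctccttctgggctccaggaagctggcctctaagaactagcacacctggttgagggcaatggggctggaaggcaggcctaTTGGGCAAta
Ngp (chr9:110419558-110419742, forward strand): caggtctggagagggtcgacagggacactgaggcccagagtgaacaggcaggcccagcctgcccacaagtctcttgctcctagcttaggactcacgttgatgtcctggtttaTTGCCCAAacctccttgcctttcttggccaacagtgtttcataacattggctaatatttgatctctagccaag
Lcn2 (chr2:32387805-32387989, reverse strand): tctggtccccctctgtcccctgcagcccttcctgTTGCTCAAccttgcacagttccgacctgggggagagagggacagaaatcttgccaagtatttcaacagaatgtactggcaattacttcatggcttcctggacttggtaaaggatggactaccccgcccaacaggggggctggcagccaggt

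Late neutrophil precursors made up 7.47% of library a (100 of 1339 cells, exact 95% binomial interval 6.12 to 9.01), 7.47% of library b (306 of 4095, 6.69 to 8.32) and 8.65% of library c (532 of 6147, 7.96 to 9.39). The mean was 7.87% ± 0.684 (SD, n = 3 libraries). The intervals, which cover counting error only, overlapped between all 3 libraries. The rule set these shares, so they carry no test. A pair of neighbouring groups was defined for comparison. Intermediate neutrophil precursors had under 5 Ltf UMIs and at least 50 UMIs of S100a8 and S100a9 together, the subunits of calprotectin (2160 cells, 18.5% ± 0.470). Early neutrophil progenitors had under 5 Ltf UMIs, under 50 UMIs of the calprotectin genes and at least 20 UMIs of Elane, the gene of neutrophil elastase (3146 cells, 27.8% ± 1.81).

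The libraries held between 2166655 and 36080242 UMIs. Late cells had a median of 6230 UMIs in library a, 4493 in b and 5615 in c, against 6572, 4422 and 5501 in the other Lin-kit+ cells, so the depth of the groups was alike within each library. Scrublet marked 154 of all 12893 cells (1.19%) as doublets. Among them were 32 of the 938 late cells, a higher share than in the series, and 23 of these were in library c. Over the 10 pairs of libraries 64 cell barcodes occurred in both members of the pair, 11 late cells carried such a barcode, and in no case were both cells late. Free RNA was gauged in 654 Lin-kit+ cells with erythroid genes (at least 10 UMIs of Klf1, Car1, Car2 and Ermap and under 50 of the calprotectin genes). A Ltf UMI was present in 2.14% of these cells (median 5226 UMIs) and in 21.2% of intermediate cells (median 5355 UMIs), and no erythroid cell reached 5.

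The markers of the label were Ltf, Ngp, Camp, Lcn2 and Cd177, which were chosen with results of these data known and are therefore described here by their values. Where they are counted again among the calls of the granule lists or of the largest changes, those calls are not independent evidence. All of them were at their highest in late cells. When each cell was thinned to 2000 UMIs (16 of the 938 late cells were shallower and left out), Ngp and Camp UMIs were present in all late cells of each library. Lcn2 was present in 99.6% ± 0.341 and Cd177 in 47.6% ± 2.87 of them (SD, n = 3 libraries). In intermediate cells the shares were 71.5%, 77.6%, 44.2% and 10.4% for Ngp, Camp, Lcn2 and Cd177. In early cells the Ngp share (10.1%) and the Camp share (12.3%) lay at the level of the erythroid cells (10.7% and 12.8%), which is read as background. The Lcn2 share of early cells (5.09%) lay above that of erythroid cells (0.834%) in each library, and Cd177 was present in 0.645% and 0% of them.

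In CPM, the UMIs of a gene relative to all UMIs summed over the cells of a group in 1 library, Ltf was at 3638, 4461 and 3981 in the late cells of libraries a, b and c. In the other Lin-kit+ cells it was at 11.6, 20.4 and 16.98, and in the early cells at 1.29, 2.46 and 2.47. Late cells held 95.4% of all Ltf UMIs of the Lin-kit+ libraries. Ngp rose from 32.2, 60.03 and 69.3 in early cells through 11632, 14806 and 13076 in intermediate cells to 60301, 61106 and 63423 in late cells. Camp ran through 32.5, 73.1 and 80.4, 20681, 26212 and 23227 and 65493, 64691 and 64036. The values of the 3 libraries did not overlap between the stages for either gene. Lcn2 stood at 6864, 7194 and 6549 in late against 612, 794 and 702 in intermediate cells, and Cd177 at 367, 409 and 368 against 48.2, 78.2 and 67.6. From intermediate to late cells the level of Camp increased least and that of Lcn2 most of the markers other than Ltf, with log2 differences of 2.001 ± 0.101 for Camp, 2.76 ± 0.102 for Ngp, 3.03 ± 0.08 for Cd177 and 3.81 ± 0.08 for Lcn2 (± SE).

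**Figure D1:**
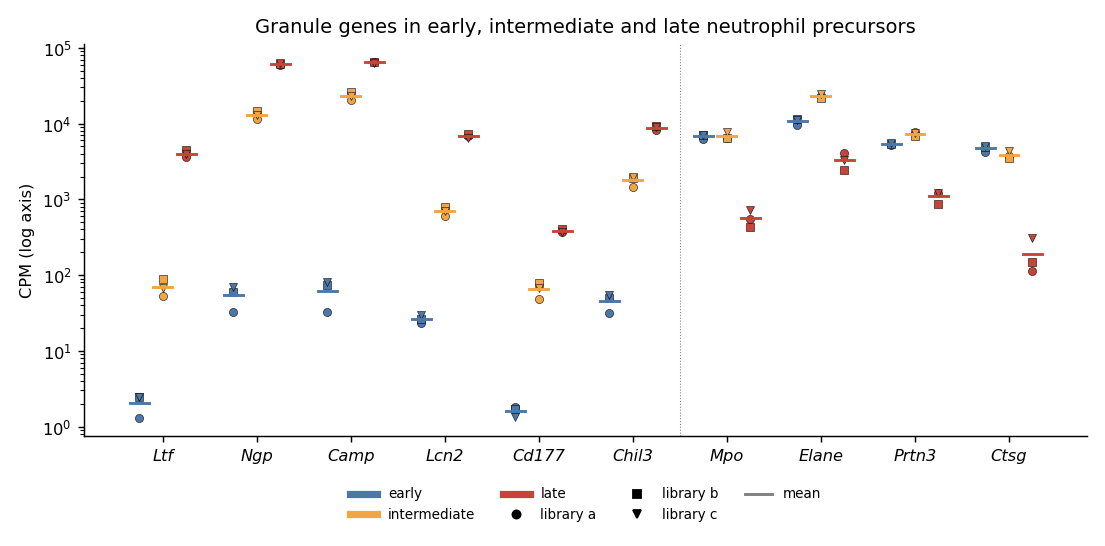
Level of 10 granule genes in CPM (log axis) in early, intermediate and late neutrophil precursors; points are libraries a, b and c and bars are their means. The secondary granule genes on the left reach their highest level in late cells (Ngp 61610.2 CPM), while the primary granule genes on the right are lowest there (Mpo 569.6 CPM); Ltf and Elane took part in choosing the cells.

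Ltf UMIs per late cell ran from 5 to 131, with a median of 18 and quartiles at 9.25 and 30. Cells just inside and just outside the rule had close values of most of the markers. The 63 cells with 5 Ltf UMIs held Ngp at 41999 and Elane at 9236 CPM, and the 58 cells with 4 held them at 43482 and 9051. Lcn2 was at 2746 and 2776 and Cd177 at 259 and 188 CPM. Over a wider range of Ltf UMIs Lcn2 went from 2459 CPM in the 194 cells with 2 or 3 Ltf UMIs to 11058 CPM in the 75 cells with 50 or more, and Ngp from 41419 to 72775. Elane went the other way, from 10889 to 616 CPM, and so did Mpo (myeloperoxidase), from 2195 to 114. Camp differed least, with 57410 CPM at 2 or 3 and 68879 at 50 or more Ltf UMIs. These values pool the cells of the 3 libraries and are descriptions.

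**Figure D2:**
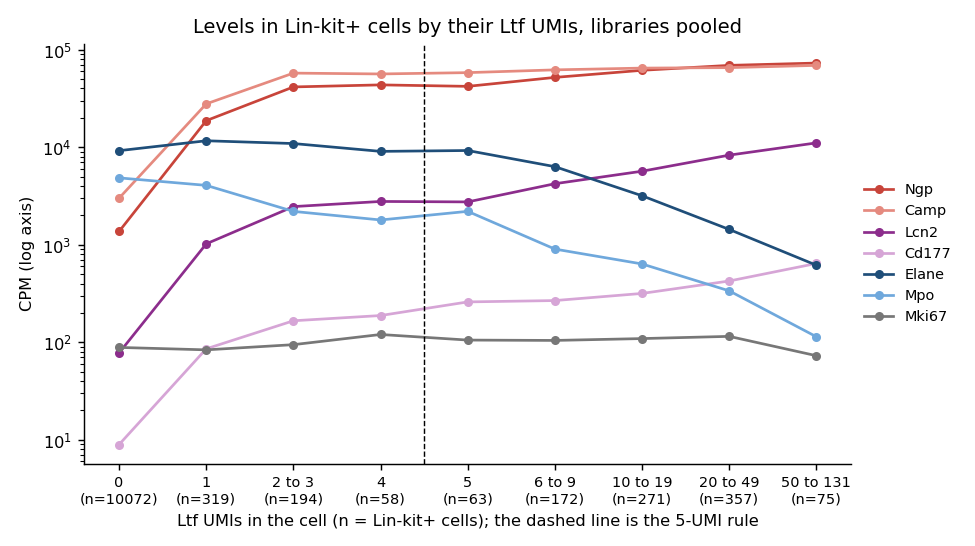
Levels of 7 genes in CPM (log axis) in Lin-kit+ cells grouped by their number of Ltf UMIs, with the 3 libraries pooled and the 5-UMI rule as a dashed line. Lcn2, Cd177 and Ngp are highest in the cells with most Ltf (11058, 642 and 72775 CPM), Elane and Mpo fall to 616 and 114 CPM in the cells with most Ltf, and Mki67 stays between 72.8 and 120.1 CPM.

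A few genes filled the transcriptome of late cells. S100a8, S100a9, Ngp, Camp, Lcn2 and Ltf together took 44.1%, 44.0% and 42.4% of the UMIs of late cells in libraries a, b and c. They took 14.9% to 18.1% in intermediate cells and 3.02% to 3.73% in other Lin-kit+ cells. S100a8 alone was at 183392, 191995 and 183362 CPM. Transcripts of ribosomal protein genes took 10.6% to 11.4% of UMIs in late cells against 31.9% to 33.2% in other cells, and mitochondrial transcripts took 1.70% to 1.83% against 3.32% to 3.40%. Late cells had fewer genes detected, with a median of 592 genes at 2000 UMIs per cell against 778 in intermediate and 893 in early cells (means of the libraries). Because these genes displace the share of all others, tests used TMM scaling, which centres the bulk of the genes. With library totals in place of TMM the median log2 difference of all genes against other cells was -1.06 and not -0.15, and log2 differences below are relative to the bulk of genes unless library totals are named.

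Counts were summed per library and group and tested with edgeR's quasi-likelihood test with the library as a block, and a gene was called at a Benjamini-Hochberg adjusted p under 0.05 and a difference of at least 2-fold. Ltf was not tested. Of 10006 genes, 1166 (11.7%) were called higher and 1991 (19.9%) lower in late than in other Lin-kit+ cells. With library totals the split was 350 higher and 5200 lower. Against intermediate cells, 403 of 7282 genes (5.53%) were called higher and 493 (6.77%) lower, and 139 and 1512 with library totals. These shares of all genes are the level to set beside each count of called list genes below. Both comparisons share the late cells, and the intermediate cells are part of the other cells, so their values are given side by side. The p-values measure the spread between these 3 libraries, which may be technical.

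Primary granule genes were low in late cells. Mpo stood at 557, 426 and 726 CPM in late, 6514, 6451 and 7669 in intermediate and 6289, 7004 and 7090.2 in early cells, a log2 difference of -3.08 ± 0.08 against intermediate cells (adjusted p = 1.74e-43). Ctsg (cathepsin G) was at 112, 150.05 and 309 against 3772, 3516 and 4373 CPM (-3.75 ± 0.099, adjusted p = 6.14e-44) and Prtn3 (proteinase 3) at 1215, 879.6 and 1223 against 7724, 6777 and 7509 CPM (-2.22 ± 0.08). The late libraries lay below every intermediate library for these genes. Elane was at 4147, 2453 and 3359 against 22904, 21726 and 24266 CPM (-2.299 ± 0.09 against intermediate cells), while against the mixture of all other cells its difference was -0.601 ± 0.097 and under 2-fold. That difference was called with library totals (-1.49) and with late cells taken at 10 (-1.40) or 20 (-1.99) Ltf UMIs. Of the 6 list genes, 5 were lower than in intermediate cells, including Prss57, a further serine protease at 125, 106 and 141 against 491, 457 and 521 CPM. The remaining gene, Ctsc, which encodes the protease that activates them, was at 7.25, 8.57 and 12.9 against 38.04, 18.3 and 30.95 CPM, and its difference (-0.85 ± 0.205) was under 2-fold on the TMM scale. It was called lower with library totals (-1.38, all 6 list genes then being lower), with late cells taken at 10 (-1.15) or 20 (-1.35) Ltf UMIs, with intermediate cells taken at 20 calprotectin UMIs (-1.10), without doublets (-1.52) and without library c (-1.09). The list had a median log2 difference of -2.26 against intermediate cells (all genes 0.02) and -1.59 against other cells (all genes -0.15). Against other cells 4 of 6 were lower, and 5 with library totals. Prss57 went the other way there, at 0.23 and not called, and stood at -0.66 with library totals. After thinning to 2000 UMIs, a Mpo UMI remained in 31.0% ± 3.64 of late cells, against 94.4% of intermediate and 12.4% of erythroid cells. For Elane the shares were 68.7%, 99.8% and 11.9%.

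Secondary granule genes were high as a group. Of the 14 list genes measured, 12 could be tested against other cells, and 11 were higher and 1 lower, with a median log2 difference of 4.93 against -0.15 for all genes. With library totals 10 were higher, since Lbp then stood at 0.40. Chil3, a chitinase-like protein, was at 8263, 9164 and 8965 CPM in late, 1472, 1891 and 1971 in intermediate and 311, 407 and 458 in other cells, and its relative Chil1 at 235, 263 and 294, 43.9, 60.4 and 56.3 and 9.34, 12.6 and 12.7. Orm1, an acute phase glycoprotein, was at 164, 147 and 168 against 28.9, 40.9 and 38.2 CPM in intermediate cells (2.63 ± 0.09, adjusted p = 2.80e-36). For these genes every late library lay above every intermediate library. Against intermediate cells 8 of 11 tested members were higher (median 2.63). The 3 others were Hp (haptoglobin, 1746, 1627 and 1751 against 1320.3, 1465 and 1567 CPM, 0.75 ± 0.07), Cyba (the p22phox subunit of the oxidase, 0.82 ± 0.06) and Lbp (lipopolysaccharide-binding protein, 0.21 ± 0.0999), and for Lbp the direction turned to -0.32 with library totals. Among the 12 members tested against other cells, 4 are markers given with the rule. Mmp8, the neutrophil collagenase, had 0 UMIs among the 5255470 of late cells, against 131 UMIs in other cells. By library totals this makes it at least 3.86-fold lower in late cells, with 3 counts over the group taken as the floor. On the TMM scale this bound is smaller. DESeq2 did not call Mmp8. Olfm4, which marks a subset of neutrophils, was too rare to test, with 9 UMIs in all late cells.

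Genes of tertiary granules and of the membrane were mostly higher in late cells, but gelatinase was scarce. Lyz2 (lysozyme) was at 16768, 17667 and 18008 CPM in late, 3259, 3618 and 3617 in intermediate and 1021, 1077 and 1242 in early cells, with a log2 difference of 2.85 ± 0.08 against intermediate cells (adjusted p = 4.62e-41). Pglyrp1, a peptidoglycan-binding protein, was at 3796, 3593 and 3601 against 1942, 2110.1 and 1999 CPM and Fcnb (ficolin-B) at 2788, 2614 and 2664 against 2127, 2349 and 2391 CPM. The Fcnb difference against intermediate cells, 0.75 ± 0.07, was under 2-fold. Itgam and Itgb2, the chains of the integrin Mac-1, were at 65.2, 92.2 and 71.7 and 175, 237 and 217 CPM, with differences of 1.24 ± 0.11 and 1.46 ± 0.07 against intermediate cells. Of the 7 members tested 6 were higher than in other cells and 5 than in intermediate cells, and 2 of these 5 with library totals. Slpi, a protease inhibitor, was the exception against other cells, with 152, 111 and 151 against 391, 389 and 397 CPM. Gelatinase itself (Mmp9) had 10 UMIs in all late cells, was present in 0.416% of thinned late cells and had 0 UMIs in other cells. Mmp25, another metalloproteinase, had 10 UMIs in late cells, and Arg2 (arginase 2) had 0.

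All 6 genes of the NADPH oxidase list were higher in late than in other cells (median 2.34), and 5 of 6 with library totals. Cybb, the catalytic subunit gp91phox, was at 467, 506 and 486 CPM against 211, 201 and 186 in intermediate and 69.5, 67.1 and 66.1 in other cells, and it was the one member called against intermediate cells (1.84 ± 0.06, adjusted p = 9.77e-37). The cytosolic subunit genes Ncf1 and Ncf4 were at 313, 299 and 257 and 476, 407 and 488 CPM and Rac2 at 1680.4, 1643 and 1720.03, and their differences against intermediate cells were between 0.79 and 0.998.

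**Figure D3:**
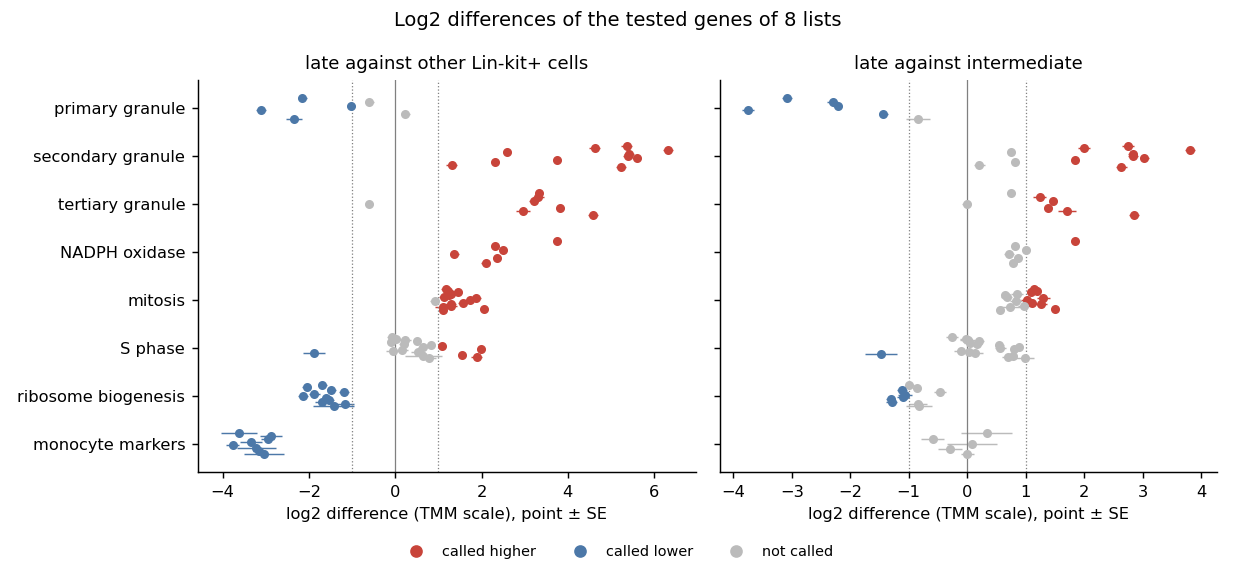
Log2 difference on the TMM scale (point ± SE) of each tested gene of 8 lists, late against other Lin-kit+ cells on the left and late against intermediate neutrophil precursors on the right; dotted lines mark 2-fold and Mmp8, with 0 UMIs in late cells, is left out. Secondary granule genes lie to the right in both panels (median 2.63 against intermediate cells). Primary granule genes lie to the left (median -2.26 against intermediate cells), except Prss57 at 0.23 in the left panel.

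Genes of mature neutrophils were mixed. Of 20 tested, 14 were higher and 3 lower than in other cells (median 2.35), and 11 and 4 with library totals. Among the 14, Fpr2, Ly6g and BC100530 stood at 0.456 CPM or less in every library of other cells. They passed the count filter through late cells, so they could not have been called lower. Ly6g, the antigen bound by the antibody to Gr-1, was at 17.4, 11.4 and 14.8 CPM against 1.07, 1.15 and 1.67 in intermediate cells, and after thinning a Ly6g UMI was present in 3.03% of late and 0.386% of intermediate cells. Fpr2, a formyl peptide receptor, was at 15.9, 9.29 and 10.1 against 0, 0.859 and 0.697 CPM (4.504 ± 0.43, adjusted p = 2.76e-14) and Retnlg at 46.4, 37.9 and 33.5 against 5.89, 10.02 and 5.995 CPM. Wfdc21 (4886, 5059 and 4653 CPM) and Anxa1, the gene of annexin A1 (2037, 2219 and 2217 CPM), were the most abundant members. Csf3r, the receptor of G-CSF, was at 24.6, 32.9 and 27.5 CPM against 49.3, 42.1 and 40.6 in intermediate cells, which was no called difference, and Cxcr2, the chemokine receptor of mature neutrophils, at 15.9, 13.6 and 12.3 against 3.75, 7.16 and 7.67 CPM. The members lower than in other cells were Ccl6, Clec4d and Wfdc17. Il1b, Stfa2l1 and Asprv1 were too rare to test, with 3, 8 and 3 UMIs in late cells.

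Among granulocyte transcription factors, Cebpe (C/EBPε) was the most abundant in late cells, at 1012, 959 and 1044 CPM against 759.8, 788 and 807 in intermediate, 87.3, 112 and 108 in early and 194, 206 and 221 in other cells. Its difference was 3.17 ± 0.097 against other cells (adjusted p = 6.06e-227) and 0.88 ± 0.06, under 2-fold, against intermediate cells. After thinning it was present in 86.1% of late, 76.9% of intermediate and 15.6% of early cells. Cebpa, the factor of the earlier granulocyte-monocyte stage, had 4 UMIs in all late cells (1.45, 0.715 and 0.632 CPM) against 4.82, 6.2996 and 6.13 CPM in intermediate and 18.8, 19.7 and 14.98 CPM in early cells. Gfi1, a repressor needed for neutrophil maturation, was at 1.45, 0.715 and 5.05 against 20.4, 18.9 and 17.6 CPM in intermediate cells (-1.89 ± 0.32, adjusted p = 8.74e-07), and Myc at 5.7996, 9.29 and 6.001 against 30.01, 27.8 and 32.9 CPM (-1.64 ± 0.23). Of the 17 factors tested against other cells 4 were higher (Cebpe, Spi1, Klf5 and Lmo4) and 10 lower (median -1.17). Spi1 and Lmo4 were not called with library totals. Of the lower ones, Rara, with 4 UMIs in late cells, lost its call with DESeq2, at 20 Ltf UMIs and with any 1 library left out. Runx1 lost its call with late cells taken at 10 (-0.91) or 20 (-0.65) Ltf UMIs. Lmo4 was also called against intermediate cells, at 148, 163 and 130.4 against 78.8, 109 and 82.4 CPM. Spi1, the gene of PU.1, differed more between libraries than between stages, with 169.6, 48.6 and 19.9 CPM in late and 166, 43.2 and 26.1 CPM in intermediate cells. The monocyte factors Irf8 and Klf4 were at 0, 9.29 and 26.2 and 0, 1.43 and 0.948 CPM in late cells and at 475, 443 and 437 and 17.3, 15.97 and 17.4 in other cells.

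Late precursors carried transcripts of dividing cells. After thinning to 2000 UMIs, at least 1 UMI of the 15 genes of mitosis was present in 90.0% of late cells in library a, 90.8% in b and 87.7% in c. The mean was 89.5% ± 1.62, against 82.9% ± 3.55 in intermediate, 79.0% ± 0.387 in early and 69.8% ± 3.14 in other Lin-kit+ cells, and every late library lay above every library of the other groups. With at least 3 UMIs the shares were 61.6% ± 3.09, 42.9% ± 4.27, 38.6% ± 0.312 and 36.4% ± 2.36. Without thinning the shares with 1 UMI were 97.4%, 95.8%, 94.9% and 80.5%. With 3 libraries an exact paired permutation test cannot pass 0.05, and none was run. At least 1 UMI of the 18 genes of S phase was present in 94.7% ± 1.67 of late and 94.5% ± 1.64 of intermediate cells, and these ranges overlapped.

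**Figure D4:**
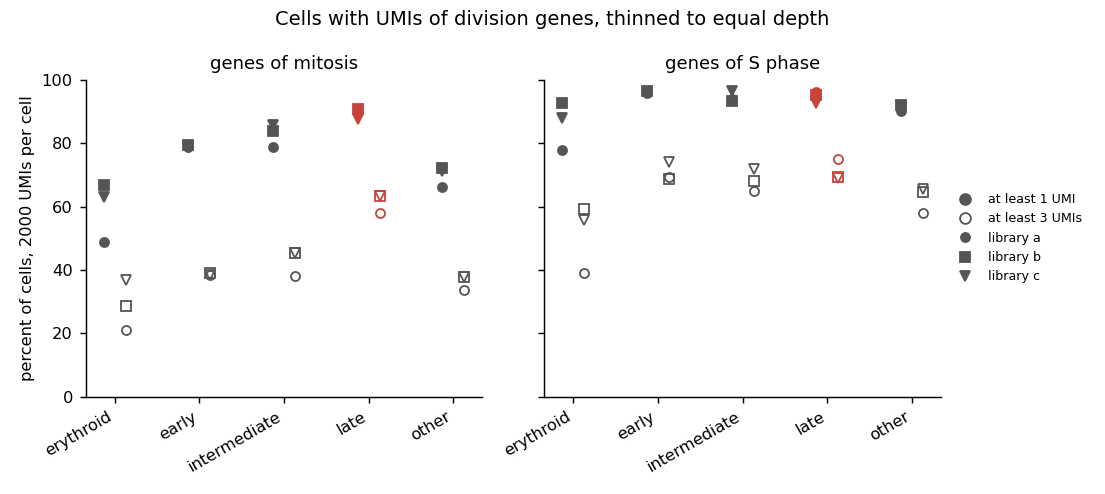
Percent of cells with at least 1 (filled) or at least 3 (open) UMIs of 15 genes of mitosis (left) and 18 genes of S phase (right) after each cell was thinned to 2000 UMIs; points are libraries a, b and c, and late cells are in red. For mitosis all late points with 1 UMI (87.7% to 90.8%) lie above those of every other group, and for S phase their range overlaps that of the intermediate cells.

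In the fitted comparison 14 of 15 mitosis genes were higher in late than in other cells (median 1.28) and 8 of 15 than in intermediate cells (median 1.03). With library totals all 15 remained above 0 in both comparisons, but the medians were 0.37 and 0.50, and 1 and 0 of them passed the 2-fold limit, although 11 had an adjusted and 11 an unadjusted p under 0.05 against intermediate cells in that fit of edgeR, and DESeq2 called 7 of 15. Ube2c, a ubiquitin-conjugating enzyme of anaphase, was at 299, 391 and 376 CPM in late, 173, 193 and 187 in intermediate and 175, 146 and 164 in other cells (2.06 ± 0.09 against other cells, adjusted p = 1.77e-104). Top2a (topoisomerase) was at 228, 265 and 287, 145, 167 and 181 and 187, 211 and 231, and Mki67 (the Ki-67 antigen) at 98.6, 109 and 107, 62.2, 66.1 and 73.1 and 89.5, 84.1 and 90.8. Within each library the late cells were the highest of these groups for each of these genes. Of 18 S phase genes 4 were higher (Tyms, Rrm2, Slbp and Ccne2) and 1 lower (Ung) than in other cells, and the list's median of 0.52 turned to -0.41 with library totals. The replicative helicase gene Mcm2 was at 49.3, 51.4 and 49.9 CPM in late and 93.2, 102 and 101 in other cells, no called difference.

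Genes that set entry into the cell cycle moved in both directions. Of the cyclins D, Ccnd3 was at 383, 254 and 158 CPM in late against 189.7, 154 and 92.9 in intermediate and 125, 96.7 and 67.1 in other cells. Ccnd2 was at 1.45, 7.86 and 14.5 against 49.3, 36.9 and 58.6 and 133, 139 and 148, and Ccnd1 had 2 UMIs in all late cells. Within each library Ccnd3 was highest and Ccnd2 lowest in late cells of these groups (1.34 ± 0.07 and -1.71 ± 0.19 against intermediate cells, adjusted p = 3.30e-26 and 3.11e-12). The kinase gene Cdk6 was at 23.2, 36.4 and 31.9 against 130.2, 127 and 123 CPM in intermediate cells (-1.44 ± 0.11). Cdkn2d, an inhibitor of the cyclin D kinases, was at 200.1, 234 and 239 against 90.02, 107 and 86.7 CPM (1.82 ± 0.08, adjusted p = 2.77e-32). Cdkn2c of the same family (1.203 ± 0.298) and Rb1, the retinoblastoma gene (1.43 ± 0.26), were also called higher. With library totals Cdkn2d remained called against intermediate cells, and Ccnd3, Cdkn2c and Rb1 kept their direction below 2-fold. The Cdkn2c call was also lost with DESeq2 and without library b (0.81). Of the 10 genes of this list 4 were higher and 4 lower than in other cells.

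All 11 ribosome biogenesis genes were lower in late than in other cells (median -1.60, and -2.48 with library totals), and 5 of 10 tested were lower than in intermediate cells (median -1.03). Fbl (fibrillarin) was at 27.5, 36.4 and 47.1 CPM in late, 121, 102 and 141 in intermediate and 377, 351 and 392 in early cells (-1.095 ± 0.11, adjusted p = 3.61e-14 against intermediate cells), and Npm1 (nucleophosmin) at 145, 200.1 and 241, 533, 467 and 600.1 and 1613, 1577 and 1759.6. All 98 ribosomal protein genes lay below 0 against other cells (median -0.72, and -1.60 with library totals). On the TMM scale 11 of them passed the 2-fold limit, a smaller share than the 19.9% of all tested genes called lower.

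Of the 10 genes listed as sorting antigens, 6 were under 10 CPM in late cells. The most abundant was Fcgr3, at 142, 125 and 129 CPM. Kit itself, on whose protein the cells were sorted, had 46 UMIs in the 938 late cells (7.25, 7.15 and 9.79 CPM, against 11.3, 16.04 and 17.01 in intermediate and 29.6, 32.2 and 28.8 in other cells). After thinning a Kit UMI was present in 1.79% ± 0.402 of late, 3.37% of intermediate, 4.69% of early and 13.6% of erythroid cells. The Kit difference was -0.34 ± 0.24 against intermediate cells and not called, and -0.85 ± 0.22 and under 2-fold against other cells. Against other cells Kit was called lower with library totals (-1.77), with late cells taken at 10 Ltf UMIs (-1.01), without doublets (-1.05), without library c (-1.23) and, in a setting chosen after seeing the data, with totals that leave out the 6 abundant genes (-1.01). Cd34 was at 2.8998, 3.57 and 8.84 CPM in late against 128, 101 and 117 in early cells. Of this list of 10, only Kit and Ptprc (CD45) stand for antigens in the gate of the Lin-kit+ libraries. Ly6a, Slamf1 and Cd48 belong to the added HSC gate, and the others to no gate of these libraries. Of the 10 genes 5 were lower than in other cells (Ly6a, Cd34, Cd48, Itga2b and Eng). Only 1, Ptprc, was higher, which ended with library totals (0.13). Of the genes listed as lineage antigens, Itgam (CD11b) was present in 15.3% ± 1.52 of late cells after thinning and Ly6c2 stood at 1633, 1463 and 1499.6 CPM. Cd4, Cd8a and Klrb1c had 0 UMIs in late cells, but only 6, 4 and 49 in all other cells, too few to compare.

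Markers of other cell types were mostly near 0. All 8 tested monocyte markers were lower than in other cells, and the 9 of the list summed to between 1.45 and 83.4 CPM in late cells against 1141 to 1194 in other cells. The 7 dendritic cell markers summed to between 10.1 and 46.1 CPM against 1014 to 1057, the 11 erythroid markers to between 8.70 and 36.4 against 551 to 732, the 7 mast cell and basophil markers to between 13.6 and 66.7 against 1429 to 1675, the 6 B lymphoid markers to between 4.29 and 6.32 against 46.9 to 53.6, the 8 stem cell markers to between 2.90 and 9.48 against 62.2 to 68.1 and the 5 lymphoid-primed markers to between 7.25 and 19.3 against 235 to 254. These sums were low in intermediate cells too, at 70.2 to 122 CPM for monocyte and 55.2 to 99.4 for dendritic cell markers. Erythroid markers were at 31.2 to 69.7, mast cell and basophil markers at 20.9 to 135 and B lymphoid markers at 26.8 to 30.4. Stem cell markers were at 5.89 to 12.7 and lymphoid-primed markers at 12.3 to 20.9. Of 5 tested monocyte markers 0 were called against intermediate cells, while Cd74, Bst2, Mcpt8, Car1 and Cd79b were called lower. Against intermediate cells 1 gene was called higher in each of the eosinophil, megakaryocyte and mast cell lists. Ear2, a ribonuclease of the eosinophil list, was at 26.1, 17.9 and 11.7 CPM in late and 1.61, 0.286 and 2.09 in intermediate cells (3.85 ± 0.35, adjusted p = 2.66e-15), while the eosinophil genes Prg3, Epx and Il5ra had 0 UMIs in late cells. Cd9, a tetraspanin of the megakaryocyte list, was at 686, 599 and 701 CPM against 241, 308 and 331 (1.67 ± 0.07), while Vwf and Ppbp had 0 UMIs. Cpa3, a carboxypeptidase of mast cells, was at 0, 1.43 and 13.9 against 1.07, 4.01 and 7.81 CPM in intermediate cells (1.04 ± 0.32, adjusted p = 0.00653), higher in CPM in 1 of 3 libraries, and its call was lost with DESeq2 (0.28), with library totals (0.51), without the count filter (0.95), without the replicate block (1.09) and with late cells taken at 3 Ltf UMIs (0.95). The list of T and NK cells stood at 300 to 400 CPM in late cells, nearly all of it Nkg7 (400.2, 300.1 and 364 CPM), which was lower than in intermediate cells (1654, 1627 and 1825).

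By the rule for the largest changes, the genes highest over other cells were Ceacam10, Lcn2, Inhba, Stfa1, Ifitm6, Cd177, Retnlg, Chil1, Chil3 and Ngp. Ceacam10, an adhesion molecule of the CEA family, had 111 UMIs in late cells, at 17.4, 27.2 and 19.3 CPM, and 0 in early cells. Inhba, the activin A subunit, was at 26.1, 32.9 and 28.1 CPM in late and 4.29, 2.58 and 3.21 in intermediate cells (3.698 ± 0.24, adjusted p = 2.32e-22), and Stfa1, a stefin, at 40.6, 50.02 and 34.1 and 5.89, 9.16 and 6.27. Ifitm6, of the interferon-induced transmembrane family, showed the widest step from intermediate to late cells, from 27.3, 38.9 and 32.2 to 618, 532 and 516 CPM (4.54 ± 0.08, adjusted p = 3.04e-54). Stfa1, Ear2 and Ly6c2 have near-identical relatives in their families, so reads may be split between them. The 10 genes lowest against other cells (Prg3, Tspo2, Ly6d, Ifi205, Smyd2, Rftn1, Phf11b, Fcgrt, Cd244 and Clec11a) all had 0 UMIs in late cells. For Prg3, the eosinophil granule protein, this gives by library totals a level at least 24.1-fold lower, and for Tspo2, an erythroid gene, at least 22.4-fold. On the TMM scale these bounds are smaller. In all, 197 of the genes called lower had 0 UMIs in late cells.

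The genes highest over intermediate cells were Ifitm6, Ceacam10, AA467197, Lcn2, Inhba, S100a6, Lyz1, Cd177, Stfa1 and Degs1. Lyz1 is near-identical to Lyz2, so its value is uncertain. S100a6 and Degs1 did not climb through the stages. S100a6, a calcium-binding protein, was at 94.05, 81.1 and 100.4 CPM in early, 6.43, 8.304 and 14.8 in intermediate and 44.9, 115 and 76.7 in late cells (3.35 ± 0.15, adjusted p = 5.35e-31). Degs1, a desaturase of ceramide synthesis, was at 64.4, 55.4 and 69.2, 15.5, 19.5 and 22.9 and 116, 114 and 116 (3.002 ± 0.11). For both genes the intermediate libraries lay below all early and all late libraries. The genes lowest against intermediate cells were Oosp1, Gm16104, Ctsg, Dmkn, Tslp, Mpo, Nle1, Ndrg2, Srgn and Fkbp11. Srgn, the proteoglycan serglycin that binds proteases in primary granules, was at 226, 214 and 311 against 2719.8, 2573 and 2941 CPM (-2.902 ± 0.08, adjusted p = 1.56e-43), and Dmkn (dermokine) at 18.8, 11.4 and 18.9 against 266, 229 and 265 CPM. Tslp, a cytokine gene, had 7 UMIs in late cells against 16.1, 13.5 and 20.4 CPM in intermediate cells.

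Late precursors also varied among themselves. Within each library they were split into tertiles by the Ltf share of their UMIs, and the upper tertile (33, 102 and 177 cells) was compared with the lower tertile of the same sizes. The medians of Ltf were 39, 31.5 and 39 UMIs in the upper and 8, 8 and 7 in the lower tertiles, and the median UMI totals were 5520, 3868 and 5330 against 7892, 4887 and 6089, so the upper tertile was shallower. Of 2829 genes 26 (0.919%) were called higher and 49 (1.73%) lower in the upper tertile (2.65% in either direction), and 17 and 148 with library totals. Cutting by Ltf UMIs in place of the share gave 17 and 16. The tertiles were not compared again without doublets.

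Primary granule genes were mostly lower in the upper tertile. Mpo was at 52.4, 118 and 101 CPM in the upper and 1187, 772 and 1491 in the lower tertiles (-3.35 ± 0.13, adjusted p = 4.44e-39), Elane at 801, 360.2 and 539.7 against 8331, 4476 and 6465 (-3.28 ± 0.08, adjusted p = 7.80e-52) and Prtn3 at 362, 212 and 312 against 2308, 1519.7 and 2183 (-2.52 ± 0.09). The tertiles did not overlap for these genes. Of the 5 tested primary granule genes 4 were lower in the upper tertile, and of the 11 tested secondary granule genes 4 were higher (Lcn2, Chil1, Chil3 and Cd177), and only Lcn2 with library totals (Chil1 0.99, Chil3 0.81 and Cd177 0.89). Lcn2 was at 10926, 10759.5 and 10345 against 3711, 4579.9 and 3639 CPM (1.68 ± 0.07). Ngp, at 73989, 73269 and 76981 against 47293, 50254 and 49593 CPM (0.86 ± 0.07), and Camp, at 69672, 66102 and 68298 against 57322, 62912 and 58731 CPM (0.44 ± 0.07), did not overlap between the tertiles but stayed under 2-fold. Without library c, Cd177, Chil1, Chil3 and Anxa1 fell below 2-fold, at 0.86, 0.91, 0.90 and 0.97, and Chil3 and Anxa1 also did when the tertiles were cut by Ltf UMIs (0.93 and 0.81).

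Beside the granule genes, the upper tertile was higher in S100a6 (100.1, 219.6 and 141 against 14.6, 36.05 and 39.1 CPM, 2.44 ± 0.19, adjusted p = 1.34e-18), in Lgals3, the gene of galectin-3 (109.6, 207 and 159 against 29.2, 47.4 and 44.2 CPM), in Ifitm6 (1077, 883 and 906 against 274, 281 and 216 CPM), in AA467197 and in Degs1. It was lower in Srgn (61.9, 44.4 and 58.5 against 457, 381 and 593 CPM), in Cst7, a cystatin (4.77, 12.3 and 19.8 against 139, 72.1 and 117 CPM), and in Lgals1 (galectin-1), whose call was lost when the tertiles were cut by Ltf UMIs (-0.41). The genes Pirb and Ncapg were called higher and Mif lower although their libraries overlapped between the tertiles. Of the 14 tested genes of mitosis 0 were called between the tertiles by edgeR and 0 by DESeq2, while in edgeR 7 had an unadjusted and 6 an adjusted p under 0.05 with a difference under 2-fold. At 2000 UMIs per cell, a mitosis UMI was present in 87.8% ± 0.261 of the upper and 88.3% ± 5.55 of the lower tertile.

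**Figure D5:**
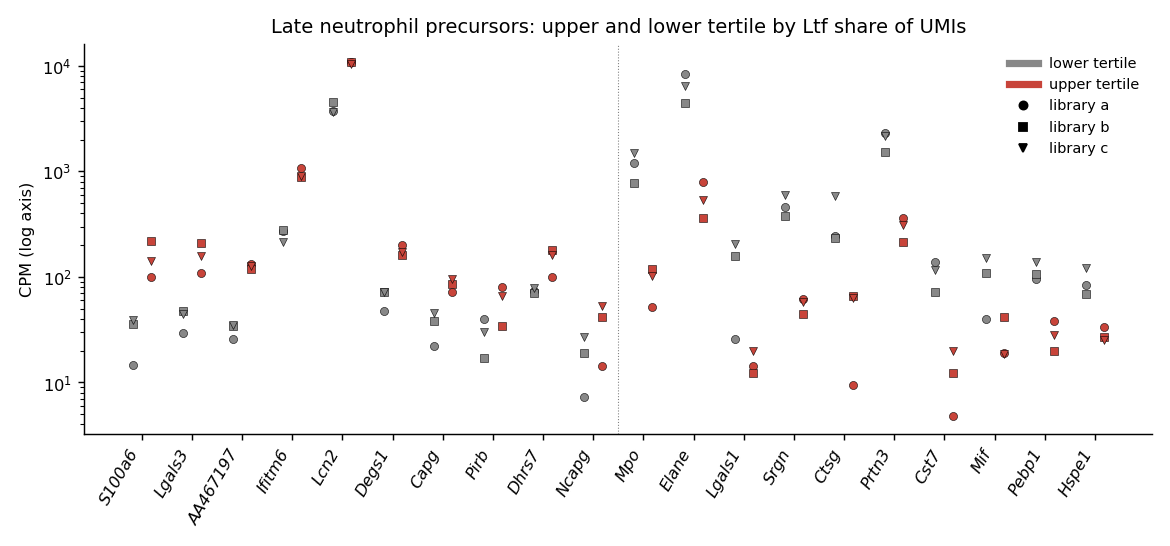
Level in CPM (log axis) of the 10 genes with the largest changes each way between the upper tertile (red) and the lower tertile (grey) of late neutrophil precursors by Ltf share of UMIs, in libraries a, b and c. Lcn2 is near 10677 CPM in the upper and 3976 in the lower tertile, Mpo and Elane are lower in each upper tertile, and the points of Pirb, Ncapg and Mif overlap between the tertiles.

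Reporter-positive cells almost never met the rule. In the Fgd5+ library 1 of 793 cells (0.126%, exact 95% binomial interval 0.00319 to 0.701) had at least 5 Ltf UMIs, and in the HSC-Fgd5+ library 0 of 519 (exact 95% upper limit 0.708%), which by the limit of 3 counts allows a share of up to 0.578%. That cell had 9373 UMIs, with 143 of Ltf, 790 of Ngp, 622 of Camp and 101 of Lcn2, and 0 UMIs of Fgd5 and of Kit. It held nearly all of the 146 Ltf UMIs of its library, and the HSC-Fgd5+ library had 1 Ltf UMI. Fgd5 itself had 4 UMIs in the 938 late cells.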

How the data were processed

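Bone marrow cells were profiled with the Chromium Single Cell 3′ system (v2 chemistry). The authors deposited raw UMI counts per gene and cell as 1 table of 15287 genes and 12893 cells, without normalization, and its 5 barcode suffixes name no sample. Per the submitters' processing notes Cell Ranger 1.3 and 2.1, Seurat 2.3.4 and mm10 were used. The counts were taken as deposited. The members and the 26 gene lists were chosen with earlier results of these data known.

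Counts were summed per library and group, and edgeR 4.0.16 (TMM, filterByExpr, glmQLFit, glmQLFTest, library as block, Benjamini-Hochberg) was the test, with R 4.3.3, Python 3.11.15, numpy 2.4.6, scipy 1.17.1 and Scrublet in scanpy 1.11.5. Both sums of a library share its cells' preparation, which is where the pairing comes from. Named genes were the markers, the defining genes of the lists, and, in each direction, the 10 called genes of largest log2 change, with at least 100 counts and the same direction in every library, without ribosomal protein and mitochondrial genes. Cells were thinned by drawing UMIs without replacement (seed 1). The fit was tested on simulated data. Alternatives were DESeq2 1.42.0, library totals, no count filter, no block, other Ltf and calprotectin thresholds, no doublets (not for the tertiles), and each library left out. Of the list genes, 8 were not in the table used here.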

Additional observations from a re-analysis of the deposited data

Results flagged for a closer look

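The Fgd5+ library, which entered no comparison, held 146 Ltf UMIs, against 1 Ltf UMI in the HSC-Fgd5+ library, and was noted because it lies outside the Lin-kit+ libraries compared. One cell accounted for 143 of these UMIs. That cell carried 2178 UMIs of S100a8 and 1170 of S100a9 beside its Ngp and Camp UMIs, and 4 of 793 cells of the library had any Ltf UMI.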

How the results depend on the processing

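The share of late precursors moved with the Ltf threshold, from 7.87% to 9.06% at 3, 5.92% at 10 and 3.58% at 20 Ltf UMIs, and to 5.62% at 5 Ltf UMIs after thinning each cell to 2000 UMIs. It lay between 7.47% and 8.06% with 1 library left out. The share of late cells with a mitosis UMI was 76.2% at 1000 UMIs per cell, 97.4% without thinning and 61.6% with at least 3 UMIs required, and between 88.8% and 90.4% with 1 library left out. Library totals in place of TMM called 5550 genes against other cells (3157 with TMM), 1651 against intermediate cells (896) and 165 between the tertiles (75), with more of them lower. How much of this follows from the share that the abundant genes take was not tested. Between the tertiles DESeq2 called 38 genes, the fit without a count filter 164 and tertiles cut by Ltf UMIs 33, and the cause was not tested. With 1 library left out, the calls ranged from 2596 to 3130 against other cells, from 768 to 1007 against intermediate cells and from 53 to 143 between the tertiles (143 without library a and 114 without library b, with more genes tested, and 53 without library c, with fewer). Chosen after seeing the data, totals without the 6 abundant genes gave 3332, 889 and 80 calls. Of these, 949 were higher and 2383 lower against other cells, and 37 were higher and 43 lower between the tertiles. Intermediate cells with 0 Ltf UMIs, also chosen after seeing the data, gave 1036. Without the replicate block there were 3065, 807 and 54 calls. Of 2664 repeats of single genes named, 2544 kept their side of the threshold, 84 lost and 36 gained the call, and a called direction was reversed in 0. Prtn3 against other cells was at -0.89 without library b and Spi1 at 0.85 without library a, each below 2-fold. Levels of a few UMIs, such as those of Cebpa and Kit, are limited by depth.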
